A study of Mus musculus with 8 samples.

Results

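The Hox genes encode homeodomain transcription factors that lie in 4 clusters, Hoxa on chromosome 6, Hoxb on chromosome 11, Hoxc on chromosome 15 and Hoxd on chromosome 2 of the mouse genome. Accessibility at 38 of these genes was examined in a mouse breast cancer line and its drug-resistant derivatives, using the consensus ATAC-seq regions whose nearest protein-coding gene body, inside it or within 50 kb, was a Hox gene. Of 57417 consensus regions, 19 met this rule, and they fell to 12 of the 38 genes. Cluster A held 11 of the regions, cluster B held 6, and clusters C and D held 1 each. Regions nearest to genes outside the list of 38 were not counted.

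ATAC-seq inserts sequencing adapters into open chromatin with the transposase Tn5, so the reads in a region measure how accessible its DNA was, not how much RNA a gene made. The assay was run on 4 cell lines with 2 libraries each. PB3-ERI-R, PB3-PAC-R and PB3-VIN-R are derivatives of PB3 made resistant to eribulin (spelled "Erubilin" in the labels), paclitaxel and vinorelbine, drugs that act on microtubules. Each was made with 300, 500 and 800 nM of its drug. PB3-Parental is the line they came from. All 4 share the PB3 background, which the labels call negative for the oestrogen receptor, the progesterone receptor and Her2. The labels speak of resistant clones, so each derivative stands for 1 selection and not for a drug in general, and they do not say whether the 2 libraries of a line came from separate cultures. P-values therefore rest on the spread between libraries of the same line, pooled over the 4 lines, and that spread may be technical.

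Within a cluster the Hox genes are ordered along the chromosome as their expression domains are ordered along the embryo's head-to-tail axis, with low-numbered genes anterior and high-numbered genes posterior. Their proteins bind DNA together with cofactors of the TALE class (the Pbx, Meis and Pknox proteins), while Polycomb complexes keep silent clusters closed and MLL complexes maintain active ones. In the mouse mammary gland, Hox9 genes act redundantly in development, and in human breast cancer HOXA5 is known as a gene whose expression is often lost.

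Of the promoters in the RefSeq table, 3 overlapped a Hox region with their upstream bases: those of the lncRNA gene 5730596B20Rik, which lies within the long Hoxa3 gene body, of Hoxa5, and of the distal transcript of Hoxa3. The window of Hoxd3os1 touched a region only past its start. The 3 promoters are shown because one lay in a region that closed in PB3-ERI-R, one in a region that fell less and one in a region that did not fall. Each is the 250 bases before the transcription start in RefSeq (GRCm38.p6), written 5′ to 3′ on the gene's own strand, and capitals mark a match to the MEIS motif TGACAG on either strand.
5730596B20Rik, chr6:52176905-52177154, plus strand: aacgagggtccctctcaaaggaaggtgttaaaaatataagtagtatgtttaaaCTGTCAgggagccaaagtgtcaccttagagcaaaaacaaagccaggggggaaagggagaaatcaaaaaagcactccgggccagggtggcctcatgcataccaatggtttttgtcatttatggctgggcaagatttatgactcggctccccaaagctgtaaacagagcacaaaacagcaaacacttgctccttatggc
Hoxa5, chr6:52204588-52204837, minus strand: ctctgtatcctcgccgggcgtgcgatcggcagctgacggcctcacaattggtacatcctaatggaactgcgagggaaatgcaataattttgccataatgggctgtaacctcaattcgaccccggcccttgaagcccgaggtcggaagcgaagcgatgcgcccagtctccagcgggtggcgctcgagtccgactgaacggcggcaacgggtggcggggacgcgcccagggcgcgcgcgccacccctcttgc
Hoxa3, chr6:52213068-52213317, minus strand: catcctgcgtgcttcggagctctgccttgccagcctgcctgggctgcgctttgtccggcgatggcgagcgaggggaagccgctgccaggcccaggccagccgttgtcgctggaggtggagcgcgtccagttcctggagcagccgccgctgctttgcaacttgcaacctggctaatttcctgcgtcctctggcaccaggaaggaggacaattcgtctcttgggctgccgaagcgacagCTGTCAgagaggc

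The 3 sequences differ in base composition. The 5730596B20Rik promoter, of which 190 of 250 bases lay in the region, had 45.6% G and C and 3 CpG dinucleotides. The Hoxa5 promoter, of which 174 bases lay in the region, had 63.6% and 28, and the Hoxa3 promoter, of which all 250 bases did, had 64.8% and 18. Over all 32851 promoters of the same length the medians were 52.4% and 6. Both strands were searched for the MEIS letters TGACAG, the PBX-HOX letters TGATTNAT, the E-box letters CACCTG, the TATA letters TATAAA and the AP-1 motif, which is TGA and TCA with any single base between them. MEIS matched once in the 5730596B20Rik and once in the Hoxa3 promoter, and no other motif matched in these 3. Of all promoters, 15.9% held the MEIS letters, 2.82% PBX-HOX, 6.75% AP-1, 17.2% the E-box and 12.4% TATA. A match describes letters, not binding.

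The clusters also hold the miR-10 and miR-196 microRNA genes. The hairpin nearest to a region was that of miR-10a, 1275 bp from the Hoxb4 region described below, and its sister miR-10b lies in cluster D, 9977 bp from the Hoxd3 region. The mature strands of this pair, from RefSeq (GRCm38.p6), share their seed (bases 2 to 8, in capitals) and are shown because miR-10a lies beside the cluster B region with the strongest loss and miR-10b beside the only region of cluster D.
miR-10a-5p, chromosome 11: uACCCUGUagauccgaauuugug
miR-10b-5p, chromosome 2: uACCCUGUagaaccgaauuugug

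The Hox clusters were sparsely accessible in all lines. A region fell nearest to 31.6% of the listed Hox genes, against 68.8% of all 21883 protein-coding genes. A region lay inside the bodies of 7 of 38 Hox genes (18.4%), against 64.2% of all genes. Among Hox genes with a promoter in the sequence table, 2 of 22 had a promoter that overlapped a region (9.09%). Of all 17491 protein-coding genes with a promoter there, 52.0% did. The 26 genes to which no region was assigned by nearest body were Hoxa4, Hoxa6, Hoxa7 and Hoxa11 in cluster A, Hoxb2, Hoxb5, Hoxb6, Hoxb7, Hoxb9 and Hoxb13 in cluster B, all of cluster C but Hoxc8 and all of cluster D but Hoxd3. Of the posterior genes of groups 10 to 13, 2 of 12 had a region (Hoxa10 and Hoxa13), against 10 of 26 in groups 1 to 9. A region counts only where some line had a deposited peak, so these figures describe called peaks, not every open site. Gene length and spacing were not matched in these comparisons, and a short gene body can hold fewer regions.

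Total counts over all regions ran from 13419873 and 10521964 in PB3-ERI-R to 24052237 and 23206697 in PB3-VIN-R, with PB3-PAC-R and PB3-Parental between them. The Hox regions took 0.0144% and 0.0159% of all counts in the PB3-ERI-R libraries, 0.0239% and 0.0265% in those of PB3-PAC-R, 0.0222% and 0.0221% in those of PB3-VIN-R, and 0.0253% and 0.0257% in PB3-Parental. Both eribulin-resistant libraries lay below every other library. A floor of 3 counts in 1 library came to 0.125 to 0.285 CPM (counts scaled to the library total; the values below use totals adjusted by edgeR's TMM factors). Genome-wide, 73% of all regions changed in PB3-ERI-R against PB3-Parental.

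In PB3-ERI-R, 11 of the 19 Hox regions changed against PB3-Parental at an edgeR quasi-likelihood adjusted p under 0.05: 2 were gained and 9 lost. Of all 57415 regions tested, 35.4% were gained and 37.6% lost in the same comparison, so the share of Hox regions that changed lay below the 73% of the whole table, while the split leaned to loss. The median log2 fold change of the Hox regions was -0.36, and that of all regions was 0.07. With loess offsets in place of the TMM factors, 16 Hox regions passed, 8 gained and 8 lost. Of all 57415 regions, 21754 were gained and 19477 lost with these offsets. One gained region and 6 lost regions passed with the same sign in all 16 alternatives: the Hoxa2 region, the first 3 of the 6 Hoxa3 regions along the chromosome, the Hoxb8 region inside the gene, the Hoxb4 region, and the nearer of the Hoxb1 regions.

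**Figure D1:**
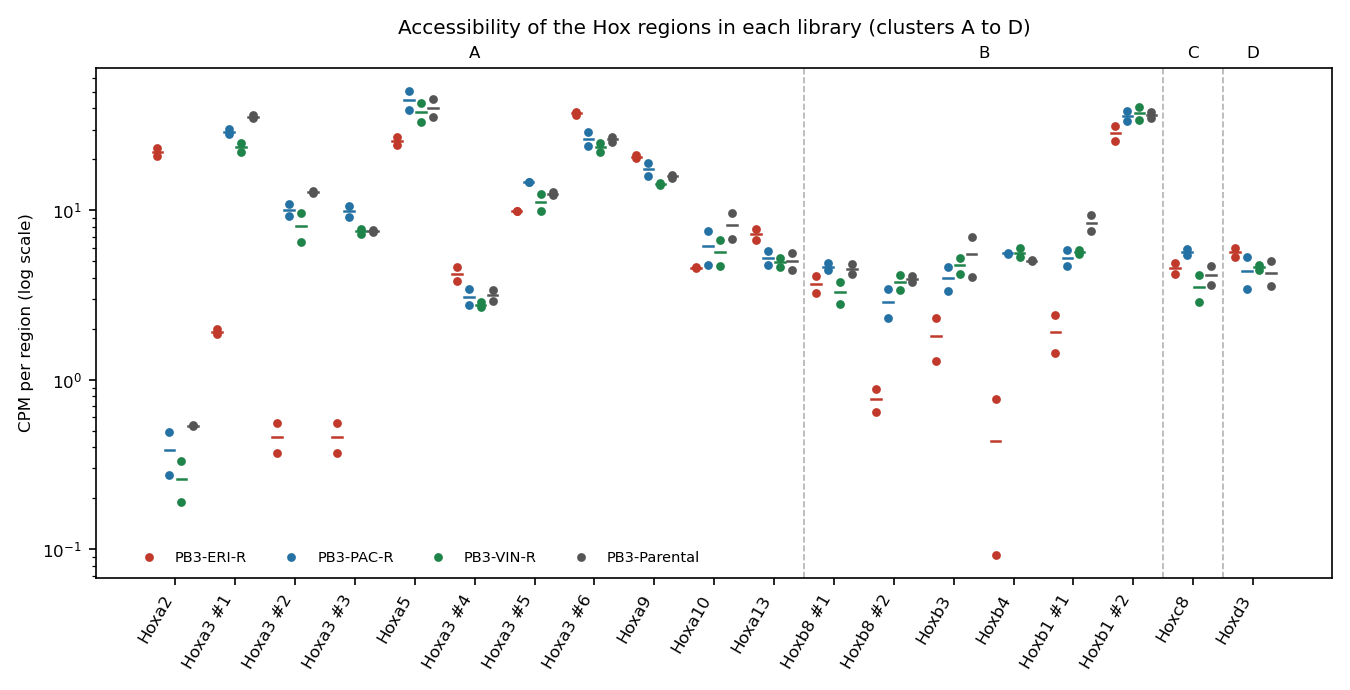
Accessibility of the 19 Hox regions in every library, in CPM on a log axis, with the regions in chromosome order within clusters A to D. Points are libraries and short lines are the means of 2. A number sign after a gene counts its regions along the chromosome. The PB3-ERI-R points stand apart for Hoxa2 (23.4 and 20.8 CPM, all other libraries under 0.6 CPM) and for the first 3 Hoxa3 regions and Hoxb4, where they lie below 2.1 CPM.

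The strongest gain lay at Hoxa2, which patterns the hindbrain and the pharyngeal arches. The region chr6:52165761-52166260 (mm10), 930 bp before the gene's transcription start and within the antisense RNA gene Hoxaas2, had 252 and 188 counts in PB3-ERI-R cells. It had 8 and 4 counts in PB3-PAC-R cells, 5 and 8 in PB3-VIN-R and 9 and 8 in PB3-Parental. The site was open in both eribulin-resistant libraries and near the floor in the other 6, with no overlap. Its mean was 22.1 ± 1.83 CPM in PB3-ERI-R and 0.537 ± 0.00661 CPM in PB3-Parental (SD, n = 2 each), a log2 fold change of 5.34 ± 0.35 (SE; adjusted p = 8.9e-09), or 40.6-fold. Under the loess offsets the log2 fold change was 1.014 and the adjusted p 0.022. The region overlapped a deposited peak of PB3-ERI-R and of no other line, with a fold enrichment at the summit of 23.6 in the authors' deposited list. An open site has no strand, so Hoxa2 and Hoxaas2 cannot be told apart here.

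The strongest losses lay inside the Hoxa3 gene body. Hoxa3, needed for the thymus and parathyroid glands, has a long annotated body that runs past Hoxa4, Hoxa5 and Hoxa6, so a region assigned to it can be close to another gene. The first Hoxa3 region, chr6:52176965-52177616, holds the start of 5730596B20Rik and most of the first promoter printed above. It had 20 and 18 counts in PB3-ERI-R cells, 456 and 440 in PB3-PAC-R cells, 651 and 534 in PB3-VIN-R and 583 and 548 in PB3-Parental. Every library outside PB3-ERI-R was well above both eribulin-resistant libraries. The means were 1.93 ± 0.0958 CPM in PB3-ERI-R and 35.8 ± 0.973 CPM in PB3-Parental, a log2 fold change of -4.21 ± 0.23 (adjusted p = 2.9e-09), or 18.6-fold lower.

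The second and the third Hoxa3 regions lie next to each other between the bodies of Hoxa4 and Hoxa5, 7347 and 6988 bp from the Hoxa5 start. The second, chr6:52196638-52197240, had 4 and 5 counts in PB3-ERI-R cells, 151 and 159 in PB3-PAC-R cells, 252 and 156 in PB3-VIN-R and 215 and 190 in PB3-Parental. The third, chr6:52197324-52197599, had the same 4 and 5 counts in PB3-ERI-R cells, 149 and 154 in PB3-PAC-R cells, 204 and 174 in PB3-VIN-R and 123 and 115 in PB3-Parental. Both were close to the floor in PB3-ERI-R and open in the other lines, without overlap. Their log2 fold changes against PB3-Parental were -4.79 ± 0.40 (adjusted p = 6.8e-08) and -4.02 ± 0.37 (adjusted p = 2.2e-07). Neither overlapped a deposited peak of PB3-ERI-R.

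Further along, the same gene body held regions that stayed open. The sixth Hoxa3 region, chr6:52212742-52213554, covers the distal Hoxa3 promoter printed above and had 411 and 332 counts in PB3-ERI-R cells, 386 and 421 in PB3-PAC-R cells, 583 and 598 in PB3-VIN-R and 423 and 407 in PB3-Parental. Scaled by depth, both PB3-ERI-R libraries (38.2 and 36.8 CPM) lay above the other 6 (22.2 to 28.8 CPM), a log2 fold change of 0.51 ± 0.17 against PB3-Parental (adjusted p = 0.015). This second gain depended on scaling: with library totals alone it was 0.16 (adjusted p = 0.41). Without the first PB3-Parental or the first PB3-ERI-R library the call was also lost, at 0.46 and 0.48. The fourth and the fifth regions, short intervals 1529 and 1169 bp from the Hoxa3 start, did not pass, at 0.42 ± 0.29 and -0.34 ± 0.23 (adjusted p = 0.21 and 0.20). With loess offsets the fourth passed as a gain at 1.22 (adjusted p = 0.0014) and the fifth turned to 0.18, while with library totals the fifth passed as a loss at -0.69 (adjusted p = 0.014). Hoxa3 thus lost its first 3 regions in PB3-ERI-R, by more than 4 on the log2 scale, while its distal promoter did not close.

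Hoxa5, which patterns the lung and the axial skeleton, had the widest Hox region, 1126 bp over its promoter and start (chr6:52203636-52204761). It held 263 and 246 counts in PB3-ERI-R cells, 635 and 739 in PB3-PAC-R cells, 865 and 1032 in PB3-VIN-R and 591 and 681 in PB3-Parental. The depth-scaled values were 24.4 and 27.2 CPM in PB3-ERI-R and 35.6 and 45.3 CPM in PB3-Parental, so the libraries did not overlap, but the promoter stayed open. The log2 fold change was -0.65 ± 0.19 (adjusted p = 0.0079). Without the second PB3-Parental library it was -0.46 and without the first PB3-ERI-R library -0.57, and neither passed.

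At the posterior end of cluster A, the Hoxa10 region passed as a loss and those of Hoxa9 and Hoxa13 did not pass. Hoxa9, a regulator of blood progenitors, had a region 1107 bp from its body (chr6:52221460-52221990). The transcription start nearest to it was that of Hoxa7, at 2887 bp, so the assignment to Hoxa9 says only which gene body was nearest. The region had 21.1 and 20.3 CPM in PB3-ERI-R and 16.3 and 15.5 CPM in PB3-Parental. The difference of 0.38 ± 0.20 did not pass (adjusted p = 0.10), but did with loess offsets (0.66, adjusted p = 0.0086). Hoxa13, which shapes the distal limb and urogenital tract, had a region 9587 bp away, and the transcription start nearest to that region was that of Hottip, at 7692 bp. The region had 6.69 and 7.75 CPM in PB3-ERI-R and 5.60 and 4.46 CPM in PB3-Parental, at 0.52 ± 0.27 (adjusted p = 0.099), and with loess offsets it passed at 1.40 (adjusted p = 0.00040). The region of Hoxa10, a gene of the uterus and the posterior skeleton, lies 178 bp from its upstream start (chr6:52240423-52240676) and had 4.55 and 4.65 CPM in PB3-ERI-R and 9.69 and 6.79 CPM in PB3-Parental. Its loss of -0.84 ± 0.32 passed (adjusted p = 0.029), but not without the first PB3-Parental library (-0.57) or without either PB3-ERI-R library (-0.83 and -0.86), and with loess offsets it was 0.01.

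**Figure D2:**
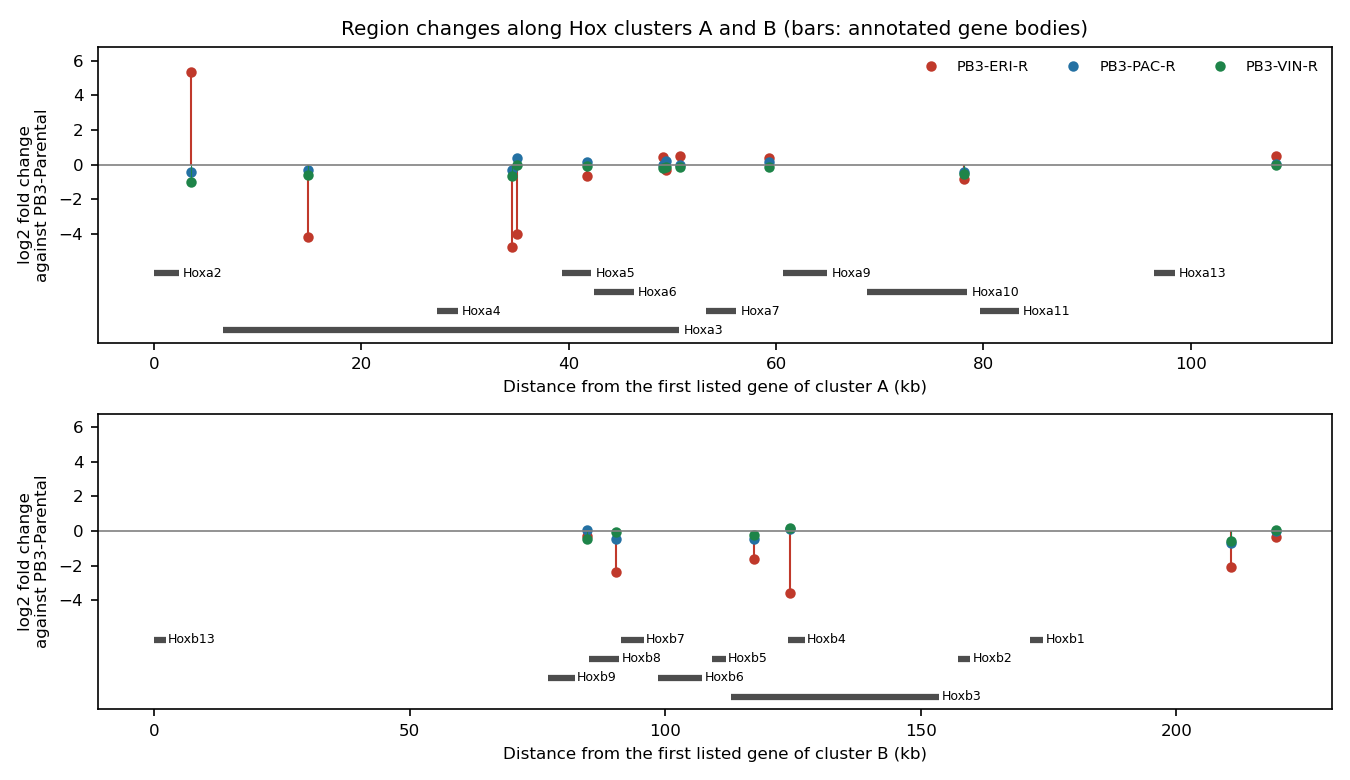
Log2 fold change of each region against PB3-Parental at its place along clusters A and B, as distance in kb from the start of the first listed gene, with gene bodies drawn as bars. Red points are PB3-ERI-R, blue PB3-PAC-R and green PB3-VIN-R; the Hoxa2 gain (5.34) and the first 3 Hoxa3 losses (-4.21, -4.79 and -4.02) lie towards the anterior end of cluster A.

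In cluster B, 4 of 6 regions were lost in PB3-ERI-R and 0 gained with the TMM factors. Hoxb4, known for its effect on the growth of blood stem cells, had a region inside the gene 282 bp from its start (chr11:96318549-96318741), which Hoxb3's body also covers. It held 1 and 7 counts in PB3-ERI-R cells, 90 and 82 in PB3-PAC-R cells, 157 and 127 in PB3-VIN-R and 83 and 77 in PB3-Parental. The eribulin-resistant libraries were at or near the floor and the other 6 were not, a log2 fold change of -3.61 ± 0.49 (adjusted p = 1.1e-05). This is the region closest to the miR-10a hairpin shown above.

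Hoxb8, which acts in myeloid cells and the spinal cord, had a region inside the gene (chr11:96284547-96284714) and one 337 bp outside it (chr11:96278857-96279064). The inner region had 7 and 8 counts in PB3-ERI-R cells, 56 and 34 in PB3-PAC-R cells, 89 and 100 in PB3-VIN-R and 68 and 57 in PB3-Parental. It fell by 2.37 ± 0.39 on the log2 scale (adjusted p = 7.3e-05) with no overlap. The outer region had 3.25 and 4.10 CPM in PB3-ERI-R and 4.82 and 4.19 CPM in PB3-Parental and did not pass (-0.30 ± 0.29, adjusted p = 0.37), but with loess offsets it passed as a gain at 0.72 (adjusted p = 0.027). The region assigned to Hoxb3, a hindbrain and neck patterning gene, lies 6432 bp before the Hoxb4 start (chr11:96311645-96311835). It had 14 and 21 counts in PB3-ERI-R cells and 116 and 61 in PB3-Parental, at -1.63 ± 0.39 (adjusted p = 0.0016), and with loess offsets -0.63 (adjusted p = 0.13).

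Hoxb1, which gives hindbrain segments their identity, had both of its regions far from the gene. The nearer, 36576 bp away (chr11:96404830-96405197), had 26 and 13 counts in PB3-ERI-R cells, 94 and 69 in PB3-PAC-R cells, 154 and 133 in PB3-VIN-R and 155 and 113 in PB3-Parental. It fell by 2.11 ± 0.32 on the log2 scale in PB3-ERI-R (adjusted p = 3.2e-05), again with no overlap. The farther, 45286 bp away (chr11:96413540-96413989), was the most accessible region of cluster B, with 25.5 and 31.6 CPM in PB3-ERI-R and 35.03 and 38.07 CPM in PB3-Parental, and did not pass (-0.36 ± 0.17, adjusted p = 0.076). It passed as a loss in 6 of 16 alternatives, among them library totals (-0.71, adjusted p = 0.0017), loess offsets (-0.49) and leaving out the second PB3-ERI-R library (-0.52). At these distances the assignment to Hoxb1 says only which gene body was nearest.

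Clusters C and D held 1 region each, and neither passed with the TMM factors, while both passed as gains with loess offsets. The Hoxc8 region (chr15:102987470-102987725) lay 2814 bp from this gene of the thoracic skeleton and 3026 bp from Hoxc9. It had 53 and 38 counts in PB3-ERI-R cells, 88 and 86 in PB3-PAC-R cells, 109 and 69 in PB3-VIN-R and 60 and 71 in PB3-Parental. Its log2 fold change in PB3-ERI-R was 0.14 ± 0.30 (adjusted p = 0.69), with values from -0.22 with library totals to 1.14 with loess offsets, the only setting that passed (adjusted p = 0.0042). The Hoxd3 region (chr2:74715826-74716093), 37 bp from the start of the antisense gene Hoxd3os1 and inside Hoxd3, a gene of the neck vertebrae, had 65 and 48 counts in PB3-ERI-R cells, 86 and 50 in PB3-PAC-R cells, 125 and 107 in PB3-VIN-R and 83 and 54 in PB3-Parental. Its log2 fold change was 0.40 ± 0.30 (adjusted p = 0.25), and 1.38 with loess offsets, which passed. With 38 to 125 counts a library in these regions, changes not much larger than the standard error of 0.30 may not have been detectable.

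**Figure D3:**
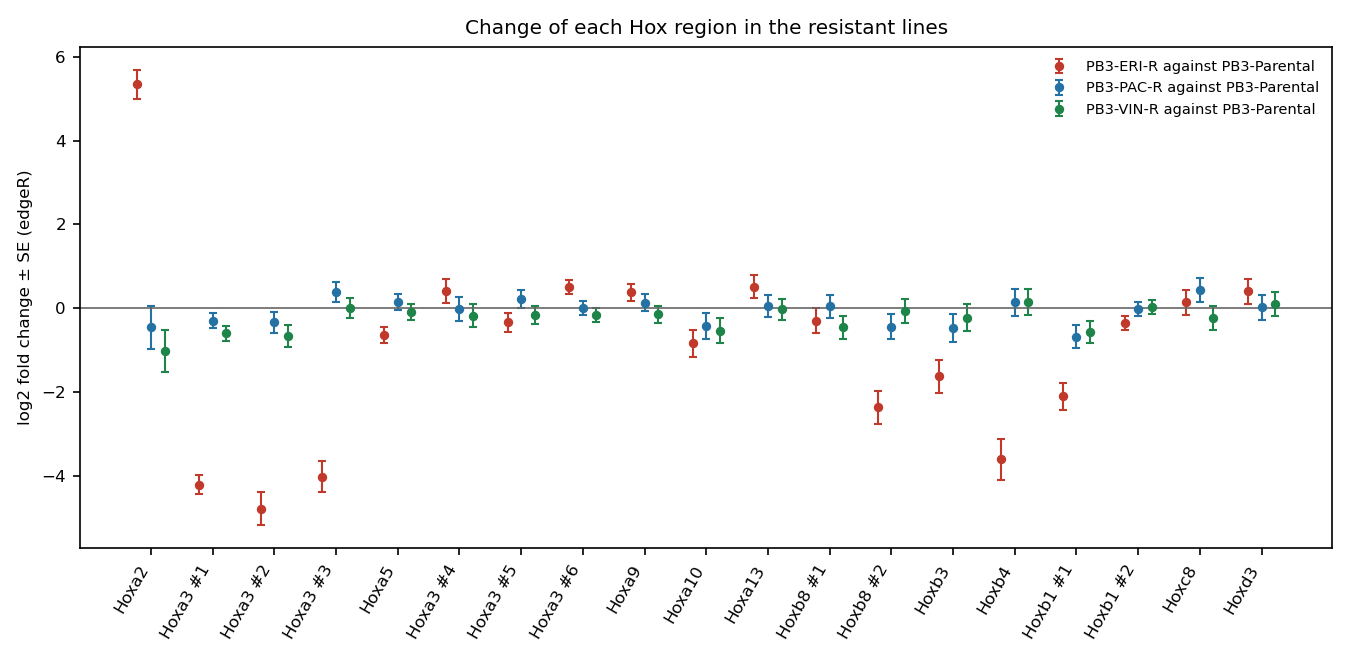
Log2 fold change (points) with its standard error (bars) of the 19 Hox regions in PB3-ERI-R, PB3-PAC-R and PB3-VIN-R, each against PB3-Parental, from the edgeR fit of all libraries. The PB3-PAC-R values run from -0.68 to 0.44 and the PB3-VIN-R values from -1.03 to 0.16, while the PB3-ERI-R values run from -4.79 to 5.34.

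In the lines resistant to paclitaxel and vinorelbine no Hox region passed against PB3-Parental in the fit without a replicate block. In the edgeR fit, 0.0853% of all regions passed in PB3-PAC-R (0.0314% gained, 0.054% lost) and 0.678% in the vinorelbine line (0.388% gained, 0.289% lost), so a count of 0 in 19 is also what the background gives. At an unadjusted p under 0.05 there was 1 Hox region in PB3-PAC-R and there were 2 in PB3-VIN-R, and DESeq2 also called 0 in both. The region in PB3-PAC-R was the nearer Hoxb1 region, with 94 and 69 counts against 155 and 113 in PB3-Parental (-0.68 ± 0.27, adjusted p = 0.73). The regions in PB3-VIN-R were the first and the second Hoxa3 regions, at -0.60 ± 0.17 (adjusted p = 0.15) and -0.67 ± 0.26 (adjusted p = 0.34). These 3 comparisons use the same PB3-Parental libraries. The Hoxa2 region had -0.46 ± 0.51 in PB3-PAC-R cells and -1.03 ± 0.50 in PB3-VIN-R, on 4 to 9 counts a library outside PB3-ERI-R, and neither passed (adjusted p = 1 and 0.55).

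Compared directly with the other resistant lines, PB3-ERI-R again had 11 changed Hox regions, 2 gained and 9 lost against PB3-PAC-R and 3 gained and 8 lost against PB3-VIN-R. Of all regions, 73% changed against PB3-PAC-R (35.3% gained, 37.6% lost) and 73.1% against PB3-VIN-R (35.5% gained, 37.5% lost). The Hoxa2 region was higher by 5.80 ± 0.37 than in PB3-PAC-R and by 6.37 ± 0.36 than in PB3-VIN-R (adjusted p = 6.8e-09 and 2.4e-09). The first Hoxa3 region was at -3.92 ± 0.23 and -3.61 ± 0.23, and the Hoxb4 region at -3.75 ± 0.49 and -3.76 ± 0.48. PB3-PAC-R against PB3-VIN-R gave 0 Hox regions in edgeR (0.00871% of all regions, 0.00697% gained and 0.00174% lost) and 0 in DESeq2, with 1 at an unadjusted p under 0.05, the Hoxc8 region, at 0.68 ± 0.28.

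Deposited peaks, of which each line has 1 list and which allow no test, did not follow the counts in every region. Of the 19 regions, 6 overlapped a peak of PB3-ERI-R, 13 of PB3-PAC-R, 17 of PB3-VIN-R and 14 of PB3-Parental. The Hoxa2 region was the only one with a peak in PB3-ERI-R alone, and 7 regions had a peak in the other 3 lines but not in PB3-ERI-R. Of those, the fifth Hoxa3, the outer Hoxb8 and the Hoxc8 region did not pass by counts. The 5 regions with a peak in every line were those of Hoxa5, Hoxa9 and Hoxa13, the sixth Hoxa3 region and the farther Hoxb1 region. PB3-VIN-R, the most deeply counted line, had the only peak in 4 regions (the fourth Hoxa3 region, the inner Hoxb8 region, Hoxb3 and Hoxd3). PB3-ERI-R had 30778 peaks in all, fewer than PB3-PAC-R (39414), PB3-VIN-R (45415) and PB3-Parental (37619). The share of all consensus regions that overlapped each list was not computed. The Hox peak counts therefore cannot be set against a genome-wide share.

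Summed per gene, 8 of the 12 Hox loci changed in PB3-ERI-R, 1 upward and 7 downward. Among all 15045 loci, 27.9% rose and 30.3% fell in the same comparison, 58.2% together. The median over the 12 Hox loci was -0.88, and that of all loci was 0.00. This table was scaled by its own TMM factors, which lowered a locus of PB3-ERI-R with a single region by about 0.3 relative to the values above. Hoxa2 rose by 5.07 ± 0.33 on the log2 scale. Hoxb4 fell by 3.88 ± 0.51, Hoxb3 by 1.91 ± 0.42, Hoxb8 by 1.21 ± 0.26, Hoxa3 by 1.13 ± 0.10, Hoxa10 by 1.12 ± 0.34, Hoxa5 by 0.92 ± 0.17 and Hoxb1 by 0.84 ± 0.13. All 8 had adjusted p values of at most 0.015, the highest being that of Hoxa10. The Hoxa10 locus did not pass without the first PB3-Parental library (-0.83, adjusted p = 0.11) or without either PB3-ERI-R library (-1.08 and -1.13, adjusted p = 0.076 and 0.063).

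The Hoxa3 locus, the most accessible Hox locus in PB3-Parental, summed to 52.5 and 53.3 CPM in PB3-ERI-R, 104.8 and 113.3 CPM in PB3-PAC-R, 95.8 and 84.0 CPM in PB3-VIN-R and 115.5 and 115.5 CPM in PB3-Parental. Both eribulin-resistant libraries lay below the rest. Counting only its regions within 1 kb of a gene end, which leaves the distal promoter, turned the value to 0.15 (adjusted p = 0.39), so the locus fell through its inner regions. Hoxb1 led cluster B, with 26.9 and 32.3 CPM in PB3-ERI-R and 52.7 and 53.2 CPM in PB3-Parental. Hoxa9, Hoxa13, Hoxc8 and Hoxd3 did not pass, with values from -0.14 to 0.24. No Hox locus passed in PB3-PAC-R or PB3-VIN-R against PB3-Parental in edgeR, where 0.113% (0.0266% up, 0.0864% down) and 0.638% (0.366% up, 0.273% down) of loci did. DESeq2 also called 0 in both. Hoxa3 in PB3-VIN-R came closest, at -0.36 ± 0.10 with an unadjusted p of 0.0043 (adjusted p = 0.22), the only locus under 0.05 there, and PB3-PAC-R had 0. PB3-ERI-R had 1 locus up and 6 down both against PB3-PAC-R, where 60.3% of all loci changed (29.4% up, 30.9% down), and against PB3-VIN-R, where 58.7% did (28.1% up, 30.5% down). PB3-PAC-R against PB3-VIN-R gave 0 Hox loci in edgeR and in DESeq2 (0.0332% of all loci, 0.0133% up and 0.0199% down), with 2 at an unadjusted p under 0.05, Hoxa3 and Hoxc8.

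**Figure D4:**
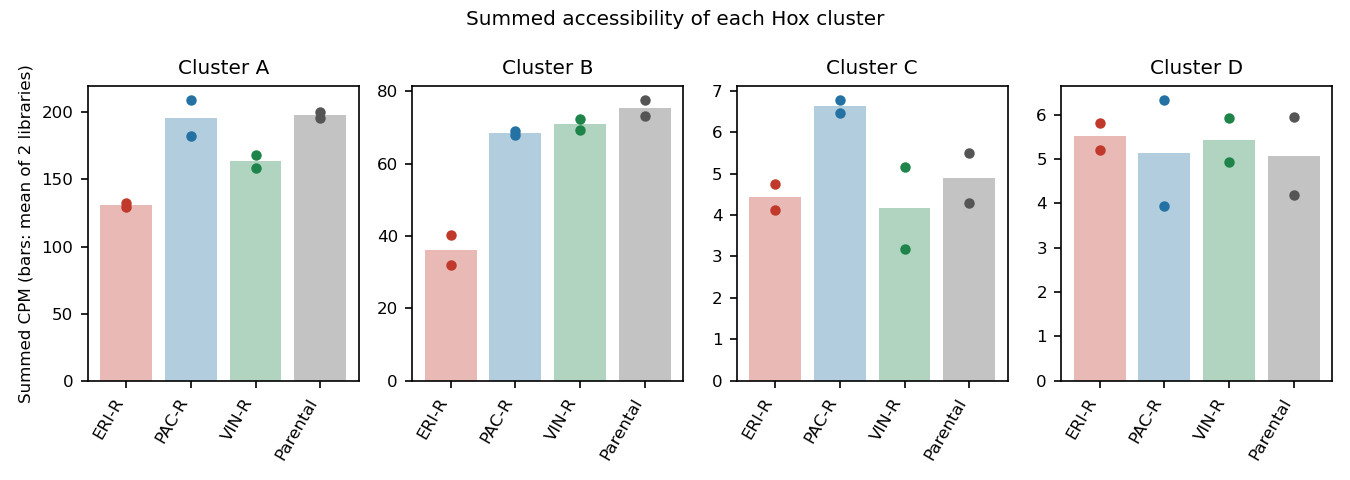
Summed CPM of each Hox cluster, with bars for the mean and points for the 2 libraries of each line; every axis starts at 0. Cluster A reads 130 and 132 CPM in PB3-ERI-R and 196 and 200 CPM in PB3-Parental, and cluster B 32.0 and 40.2 CPM in PB3-ERI-R and 77.6 and 73.2 CPM in PB3-Parental.

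Over whole clusters, A and B were less accessible in PB3-ERI-R and C and D were not distinguishable from PB3-Parental. This fit had its own TMM factors (0.930 and 0.976 in PB3-ERI-R, 0.802 and 0.858 per region), which lowered PB3-ERI-R relative to the region values. The only region of cluster D was at 0.40 per region and at 0.12 here. Cluster sums were not fitted with the factors of the region fit, so the size of these falls depends on the scaling. Cluster A summed to 131 ± 1.87 CPM in PB3-ERI-R, 196 ± 19.1 CPM in PB3-PAC-R, 164 ± 6.79 CPM in PB3-VIN-R and 198 ± 2.997 CPM in PB3-Parental (SD, n = 2 each). Cluster B summed to 36.1 ± 5.79 CPM in PB3-ERI-R, 68.4 ± 0.742 CPM in PB3-PAC-R, 70.9 ± 2.19 CPM in PB3-VIN-R and 75.4 ± 3.10 CPM in PB3-Parental. In PB3-ERI-R both sums lay below every other library. The log2 fold changes against PB3-Parental were -0.60 ± 0.10 for A (adjusted p = 0.00049), -1.07 ± 0.12 for B (adjusted p = 2.6e-05), -0.14 ± 0.31 for C (adjusted p = 0.72) and 0.12 ± 0.31 for D (adjusted p = 0.77). Limited to regions within 1 kb of a gene end, A was -0.11 (adjusted p = 0.47) and B -1.85 (adjusted p = 0.00011). Within 10 kb of a gene, B was -1.78.

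Neither cluster A nor B passed in the other lines against PB3-Parental: A was -0.02 ± 0.10 in PB3-PAC-R cells and -0.28 ± 0.10 in PB3-VIN-R (adjusted p = 1 and 0.47), and B was -0.14 ± 0.12 and -0.09 ± 0.12. Against PB3-PAC-R and PB3-VIN-R directly, PB3-ERI-R was lower in cluster A by log2 fold changes of -0.58 ± 0.10 and -0.32 ± 0.10 (adjusted p = 0.00058 and 0.019) and in cluster B by -0.93 ± 0.12 and -0.98 ± 0.12 (adjusted p = 7.4e-05 and 4.4e-05). The cluster A call against PB3-VIN-R was lost without either PB3-ERI-R library (-0.31 and -0.32) and without the first PB3-VIN-R library (-0.28). PB3-PAC-R against PB3-VIN-R gave 0.26 ± 0.10 for A and -0.05 ± 0.12 for B, and neither passed.

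Around the clusters, regions changed in both directions. Over the whole table, 35.4% were gained and 37.6% lost in PB3-ERI-R against PB3-Parental. Within 5 Mb outside cluster A, 275 regions had a median log2 fold change of 0.12 in PB3-ERI-R against PB3-Parental, with 101 gained and 95 lost, and for cluster B 455 regions had a median of 0.15, with 132 gained and 124 lost. For clusters C and D the medians were 0.25 (341 regions, 119 gained and 75 lost) and 0.15 (219 regions, 79 gained and 73 lost). Dividing out such neighbourhood medians as a stand-in for copy number gave -0.69 for cluster A and -1.20 for cluster B. In PB3-PAC-R the regions around cluster C had a median of 0.26, beside 0.44 ± 0.29 for the Hoxc8 locus itself. Next to cluster A at its posterior end lies Evx1, a homeobox gene that shares regulation with the Hox genes in embryos, and all 4 of its regions were gained in PB3-ERI-R. The region inside Evx1 (chr6:52317906-52318267) had 232 and 138 counts in PB3-ERI-R cells, 13 and 9 in PB3-PAC-R cells, 9 and 3 in PB3-VIN-R and 4 and 5 in PB3-Parental, a log2 fold change of 5.98 ± 0.42 (adjusted p = 1.7e-08). In PB3-ERI-R the closed cluster A sites thus lay between gained sites at Hoxa2 and at Evx1. That stretch also held sites that stayed open, those of Hoxa5, Hoxa9 and Hoxa13 and the sixth Hoxa3 region, which passed as a gain. Beside cluster B, 1 of 2 Ttll6 regions fell by 1.97 ± 0.30 (adjusted p = 3.5e-05) and a Skap1 region by 2.08 ± 0.52 (adjusted p = 0.0021), and the summed loci of both genes fell too, by 1.025 ± 0.21 and 1.07 ± 0.17. Beside cluster C, a Smug1 region had a log2 fold change of -2.69 ± 0.25 (edgeR adjusted p = 2.6e-07). Beside cluster D, a Lnpk region was at 0.62 ± 0.15 and a Mtx2 region at 0.87 ± 0.21 (edgeR adjusted p = 0.0023 and 0.0016). Beyond the copy number offsets, the part of the neighbourhood in the Hox values was not tested.

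Genes that act with or on the Hox genes changed in both directions in PB3-ERI-R, against the background of 58.2% of loci. With copy number offsets, 3843 of all 15045 loci rose and 4631 fell. Of 8 TALE cofactor loci, 2 rose and 3 fell: Meis1 fell by 1.98 ± 0.14 and Pknox1 by 1.04 ± 0.15, and Pknox2 rose by 0.69 ± 0.10. Of 11 Polycomb PRC2 loci 4 rose and 3 fell, and of 17 Polycomb PRC1 loci 6 rose and 1 fell. The PRC1 gene Cbx8 rose by 1.71 ± 0.12, but by 0.48 with the copy number offsets, while Pcgf5 fell by 1.61 ± 0.13. Of 17 MLL and Trithorax loci 2 rose and 5 fell, and with copy number offsets 3 rose and 8 fell. Of 9 CTCF and cohesin loci 1 rose and 5 fell. Among 14 loci of retinoic acid signalling, which sets anterior Hox expression in embryos, 2 rose and 6 fell: the receptor gene Rarb rose by 1.83 ± 0.13, and Aldh1a2, which makes retinoic acid, fell by 2.29 ± 0.34. Of 6 ParaHox and Evx loci 4 rose and 2 fell, and of 25 loci neighbouring the clusters 6 rose and 6 fell. With copy number offsets the neighbours split into 3 risen and 9 fallen, the ParaHox and Evx loci into 3 and 3, the TALE cofactors into 2 and 5 and PRC1 into 5 and 2. In PB3-PAC-R and PB3-VIN-R no locus of these lists passed.

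Cell type marker loci also changed in PB3-ERI-R against PB3-Parental, where 27.9% of all loci rose and 30.3% fell. With copy number offsets, 3843 of all 15045 loci rose and 4631 fell. Of 8 epithelial loci 5 rose and 0 fell, or 4 rose and 1 fell with copy number offsets. Their summed accessibility was 938 to 1103 CPM in PB3-ERI-R and 542 to 684 CPM in PB3-Parental. It was 487 to 645 CPM in PB3-PAC-R and 453 to 666 CPM in PB3-VIN-R. Of 8 mesenchymal loci 1 rose and 6 fell, with sums of 579 to 605 CPM in PB3-ERI-R, 889 to 915 CPM in PB3-PAC-R, 859 to 923 CPM in PB3-VIN-R and 934 to 940 CPM in PB3-Parental. All 4 measured macrophage loci of 8 listed fell (17.6 to 19.3 CPM in PB3-ERI-R, 128 to 132 CPM in PB3-PAC-R, 121 to 171 CPM in PB3-VIN-R and 109 to 142 CPM in PB3-Parental), and 4 had no region in any line. Of 5 endothelial loci 3 fell, with sums of 117 to 123 CPM in PB3-ERI-R, 187 to 193 CPM in PB3-PAC-R, 175 to 201 CPM in PB3-VIN-R and 196 to 211 CPM in PB3-Parental. The part of these shifts in the Hox values was not tested, and in bulk samples fewer cells with an open site and a less open site in each cell cannot be told apart.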

How the data were processed

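ATAC-seq libraries, 8 in all and 2 for each of 4 lines, were grouped by the labelled cell line. Per the submitters' processing notes, the tools included Bowtie2 2.2.6, MACS2 2.1.1, cutadapt 1.9.1, bcl2fastq 2.20.0.422, featureCounts, deepTools and Picard, and the builds were mm10 and GRCm38. The sources used here do not give their settings, any Tn5 shift or the counting unit (read or fragment). In the table the authors deposited, values are raw counts for each region of the consensus, not normalized. Peak lists, which the authors deposited once for each line, hold a score of 830 to 1000, a fold enrichment as a ratio over background, and a −log10 q value per summit. The deposited region list holds other values, the coordinates of each region.

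Each region was given to its closest gene body among 21883 protein-coding ones (RefSeq, GRCm38.p6), inside or within 50 kb, and inside several bodies to the shortest, which placed 48270 regions. The annotation has no strand, so starts came from the RefSeq promoter table. Counts were fitted per region, per locus (regions summed by gene) and with the Hox loci summed by cluster, using edgeR 4.0.16 (R 4.3.3): filterByExpr, TMM, 1 term per line, and the quasi-likelihood test. Calls used a Benjamini-Hochberg adjusted p under 0.05 over the whole table (57415 regions or 15045 loci). Standard errors were taken as the absolute log2 fold change over the root of F. The fits were tested on simulated data in which few rows changed, so the scaling was not tested where most rows change. The 2 libraries of a line differed beyond counting error (chi-square over its degrees of freedom, 4.60 to 10.2). Floors cover counting error only. The members, gene lists and tests were chosen with earlier results of these data known. In each list at most 3 loci with the smallest adjusted p in PB3-ERI-R were named (1 such locus is not reported here), and within clusters every member was accounted for.

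Alternatives were other normalizations, copy number offsets (medians of regions within 5 Mb, leaving out those within 250 kb), no filter, DESeq2 1.42.0, only the 2 lines compared, a replicate block, leaving out each library, and other assignment rules.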

Additional observations from a re-analysis of the deposited data

How the results depend on the processing

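The counts of changed Hox regions stayed within 1.5 times under every alternative in the comparisons of PB3-ERI-R with PB3-Parental (8 to 16, from 11), PB3-PAC-R and PB3-VIN-R. Deviations of same-numbered libraries correlated at 0.079 between PB3-ERI-R and PB3-Parental and at 0.137 to 0.476 for the other 5 pairs of lines, and the labels do not say what a number marks, so the numbers were not taken as pairs. With them as a block, 1397 regions rose and 1320 fell in PB3-VIN-R against PB3-Parental (223 and 166 without it), and the Hoxa9 region (0.38, adjusted p = 0.046) and the farther Hoxb1 region (-0.36, adjusted p = 0.018) passed in PB3-ERI-R. The replicate block called 1 Hox region and 1 locus, the first Hoxa3 region and the Hoxa3 locus, in PB3-VIN-R against PB3-Parental, where 277 of all loci rose and 189 fell. In PB3-ERI-R against PB3-Parental it called 13 Hox regions, and of all 57415 regions 22589 rose and 22625 fell. With library totals alone the median of all regions in that comparison was -0.29, against 0.07 with TMM. In that setting 1 Hox region was gained and 11 were lost, beside 14862 and 25149 of all regions. There the Hoxc8 region turned to -0.22, and it was -0.10 with copy number offsets and -0.057 without the first PB3-Parental library (0.34 without the second). With loess offsets the uncalled Hoxa3 region next to last turned to 0.18, the outer Hoxb8 region to 0.72 and the called Hoxa10 region to 0.0070. Keeping only regions within 1 kb of a gene end, PB3-ERI-R had 5 changed loci against PB3-Parental, 4 against PB3-PAC-R and 4 against PB3-VIN-R, with cluster A at -0.11, -0.16 and 0.064 and Hoxa3 at 0.15, since fewer regions enter. Of all 10436 loci under this rule, 2184 rose and 2127 fell against PB3-Parental, 2305 and 2386 against PB3-PAC-R and 2158 and 2230 against PB3-VIN-R. Cluster A in PB3-ERI-R against PB3-VIN-R was -0.23 with loess offsets and -0.35 to -0.28 with a library left out, where 3 of the fits lost the call. Uncalled sums near 0 changed sign. Cluster A in PB3-PAC-R was 0.0023 with library totals, 0.0054 with loess offsets, 0.0011 with only those lines, 0.0041 within 10 kb, 0.048 within 1 kb and -0.12 to 0.079 with a library left out. Cluster B in PB3-PAC-R against PB3-VIN-R was 0.0056 with copy number offsets and 0.058 within 1 kb. In PB3-ERI-R, cluster C was -0.31 to 0.048 and cluster D -0.11 to 0.40 with a library left out, D was -0.032 with copy number offsets, and their loci Hoxc8 and Hoxd3 moved alike (0.048, -0.032 and -0.11). Peaks with a score of 1000 overlapped 10 regions in PB3-VIN-R and 9 in PB3-Parental. The MLL list had 11 changed loci with copy number offsets. The causes were not tested.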
